A study of Mus musculus with 8 samples.

Results

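The genes described here encode the proteins of the cytosolic ribosome. They were taken as all genes whose platform symbol is Rpl or Rps followed by a number, with or without a letter, or Rplp with a number. Of 66 such symbols on rows with a single symbol, 2 belong to pseudogenes (Rpl6l and Rps4l) and were left out, so that 64 genes of the 22180 measured remained. They comprise 32 proteins of the large subunit, 22 of the small subunit, the 3 proteins of the stalk and 7 paralogs (Rpl3l, Rpl7l1, Rpl10l, Rpl22l1, Rpl32l, Rpl39l and Rps27l). The mouse gene table holds 83 protein-coding symbols of this form, and 19 of these, Rpl10, Rpl24 and Rps27a among them, were not analysed here. Of these 19, 12 stand only in rows that carry several symbols. The rule used symbols alone and no measured value.

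The small subunit of the ribosome reads the messenger RNA and the large subunit joins amino acids, and nearly every subunit protein is made in equal numbers and is needed in every cell. Their messenger RNAs belong to the most abundant ones in a cell. They start with a run of pyrimidines, the 5' terminal oligopyrimidine tract, through which mTOR and the RNA-binding protein LARP1 adjust their translation and stability. In the skin, mutations of Rps19, Rps20 and Rps7 in mice change pigmentation, and surplus Rpl5 and Rpl11 bind Mdm2, which stabilises p53.

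Expression was measured on 8 mouse gene arrays, given as log2 values made with RMA, hybridised with amplified cDNA from cells sorted out of digested whole skin. All mice carried the Tyr::Cre transgene, which recombines in the melanocyte lineage, and the Z/EG reporter, which makes GFP after recombination, on a mixed C57Bl/6; 129/Sv background. GFP+/p75- cells were sorted in every case. P4_WT holds 2 arrays of cells that the labels call melanoblasts, from B-raf +/+;C-raf +/+ mice of 4 days. P21_WT holds 2 arrays of cells called melanocyte stem cells, from mice of 21 days with the same alleles. P21_KO holds 4 arrays of such cells from 21-day mice with homozygous floxed B-raf and C-raf alleles, in which the same Cre can delete both genes in the lineage. The labels call every array a biological replicate and do not say how many animals gave each. The names of P21_KO replicates 2, 3 and 4 share 1 number, followed by a different second number in each, and its meaning is not given. If it marks a common source such as a litter, the p-values below are too small; with it as a random block, 12 rather than 13 members passed in P21_KO against P4_WT. An array reads the mean of the sorted cells, so fewer cells with a transcript and less of it per cell cannot be told apart, and RMA sets all arrays to one distribution, so that a change in total RNA per cell is not seen.

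Braf, a target of the knockout, read 5.99 and 7.20 in P21_WT and 6.57, 6.49, 6.30 and 5.66 in P21_KO, and these ranges overlap. Whether its probes lie within the deleted part was not established. The 10 melanocyte lineage markers had a mean log2 value of 9.62 and 9.55 in P4_WT, 8.62 and 8.54 in P21_WT and 6.64 to 8.21 in P21_KO, so that all 8 arrays read them well above the median gene (3.34 to 3.40). P4_WT replicate 2 stood apart in markers of other cells. There the 9 endothelial markers had a mean of 5.47 (3.23 to 3.54 elsewhere), the 9 macrophage, dendritic and T cell markers 5.10 (3.13 to 3.50 elsewhere) and the 6 mast cell markers 4.77 (2.16 to 2.44 elsewhere). The 10 hair shaft and inner root sheath markers were highest in P4_WT, at 5.94 and 4.12, against 2.75 to 2.90 in P21_WT and P21_KO. The 9 measured keratinocyte markers had means of 7.52 and 6.70 in P4_WT, 8.20 and 7.88 in P21_WT and 7.40 to 8.22 in P21_KO. The 9 Schwann cell and glial markers had means of 7.07 and 6.93 in P4_WT, 7.41 and 7.21 in P21_WT and 7.20 to 7.63 in P21_KO. The 9 fibroblast markers had means of 5.40 to 6.55 over the 8 arrays, and of the red blood cell list 1 gene was measured, at 2.61 to 3.01.

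Many ribosomal protein genes stood near the top of the range of values. Of the 64 members, 30 had a mean over the arrays of 9 or above on the log2 scale, which is 46.9% of them, while 211 of all genes, or 0.951%, reached this level. Among the 100 highest genes on the arrays, 22 were members. The highest member mean was 11.71, that of Rpl41, and the median over members was 8.35 against 3.39 over all genes. Of the other members, 12 lay between 5 and 9 and 22 lay under 5. Rows of the same gene could differ widely: Rps19, a small subunit protein whose mutation darkens the skin of mice, had rows with means of 9.59 and 3.57. The value of a row depends on its probes as well as on the transcript, so no order of genes by level is given. The group of 30 at 9 or above was defined after the values were seen and is used as a description.

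On the 30 members at 9 or above the arrays separated by group. Their mean log2 value was 10.58 and 10.59 in P4_WT. It was 10.33 and 10.39 in P21_WT, and 10.26, 10.07, 10.19 and 10.19 in P21_KO. Every P21_WT array therefore lay below every P4_WT array, and every P21_KO array lay below every P21_WT array. The other 181 genes at 9 or above had means of 9.72 and 9.73 in P4_WT, 9.78 and 9.82 in P21_WT and 9.69 to 9.84 in P21_KO, and these ranges overlap between genotypes. For 29 of the 30 members the group mean was highest in P4_WT, lower in P21_WT and lowest in P21_KO. The exception is Rps3a1. The same order held for 42 of all 64 members (65.6%), for 73 of the other 181 genes at 9 or above (40.3%) and for 4724 of all genes (21.3%). Among 71 genes of mitochondrial ribosomal proteins it held for 37 (52.1%). P21_KO replicate 2 read lowest of the 8 arrays for 18 of the 30 members, and without it 29 of 30 stayed below P4_WT and 26 of 30 below P21_WT.

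**Figure D1:**
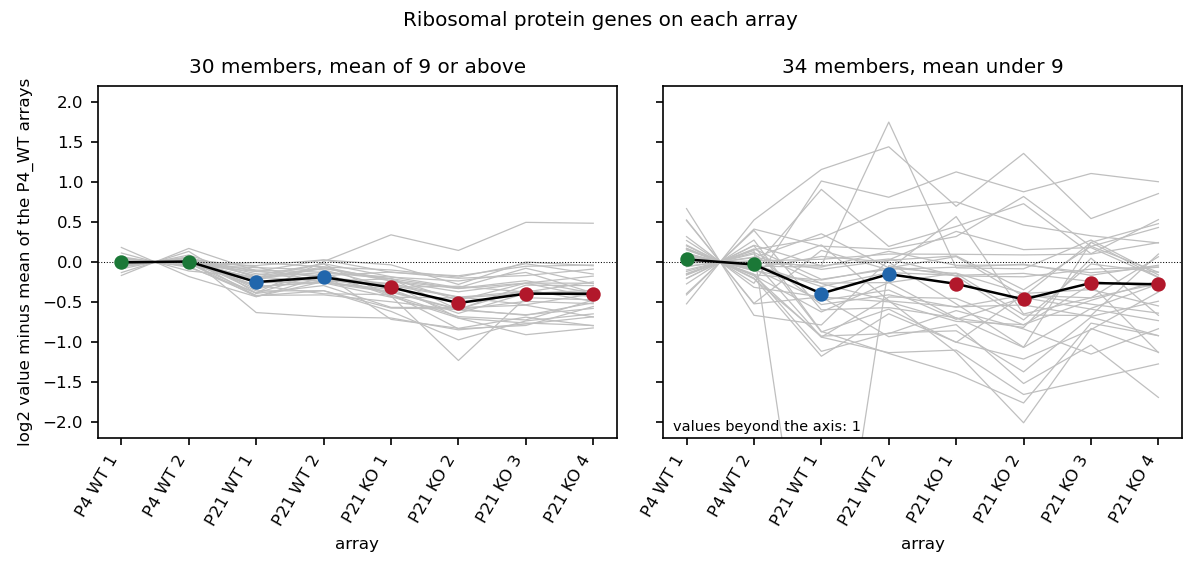
The log2 value of each ribosomal protein gene on each of the 8 arrays, minus its mean over the P4_WT arrays (grey lines, which only link the values of 1 gene), for the 30 members with a mean of 9 or above (left) and the 34 others (right). Large dots are means over the members of a panel, coloured by group; in the left panel all P21 arrays lie below both P4_WT arrays, and 1 value of the right panel (Rps13 in P21_WT replicate 1) lies beyond the axis.

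The profiles of the 30 members over the arrays were alike. Over the 435 pairs of these genes, the median Pearson correlation across the 8 arrays was 0.81, against 0.05 over the pairs of the other 181 genes at this level and 0.18 over pairs of the 34 members under 9. With the group means subtracted the median was 0.31, 0.04 and 0.02 in the same order. For the 71 genes of mitochondrial ribosomal proteins, taken at all levels, the median was 0.43, and 0.17 with the group means subtracted. The arrays share 1 normalization, and these correlations are a description.

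The age comparison sets melanocyte stem cells of 21-day mice against melanoblasts of 4-day mice. In it, 53 of 64 members were lower in P21_WT and 11 were higher, with a median log2 change of -0.20 (quartiles -0.40 and -0.07), while the median over all genes was 0.00. All 30 members at 9 or above were lower, by 0.01 to 0.66 on the log2 scale, with a median of -0.19. Single genes were tested with limma, a linear model that pools the spread over genes and here over all 8 arrays, with two-sided p-values and the Benjamini-Hochberg adjustment across all 22180 genes. No single member passed at an adjusted p under 0.05 (0 of 64), where 1.61% of all genes did and are said to be called. At an unadjusted p under 0.05 in limma, 11 members were lower and 2 were higher, and 7.46% of all genes were lower at that threshold. Both P21_WT arrays lay below both P4_WT arrays for 39 members (22.1% of all genes) and above them for 5 (21.4% of all genes). At 9 or above they lay below for 24 of the 30 members (80.0%). Of the other 181 genes at this level, 104 were lower in P21_WT, with a median of -0.07. Both P21_WT arrays lay below both P4_WT arrays for 44.2% of these genes and above them for 32.6%. Markers of several cell types differed between the same arrays. Both P21_WT arrays lay above both P4_WT arrays for 7 of 9 keratinocyte markers (median change 1.17, none called by limma) and below them for 9 of 10 melanocyte lineage markers (median -0.98, none called by limma). Of the 9 Schwann cell and glial markers limma called 4 higher and 1 lower (median 0.64). Their part in the age differences of the ribosomal protein genes was not tested.

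The members with the smallest p in the age comparison came from different parts of the ribosome. Rplp0, which anchors the stalk that recruits elongation factors, read 7.86 and 7.88 in P4_WT and 6.93 and 6.74 in P21_WT. The groups do not overlap, and the change was -1.04 ± 0.21 (SE) on the log2 scale, a 2.05-fold lower level (limma, adjusted p = 0.0552). Its second, dimmer row went the other way (0.36), and with the mean of both rows the change was -0.34. Rps3, a small subunit protein at the entry of the messenger RNA channel that also takes part in DNA repair, read 9.996 and 10.12 in P4_WT and 9.43 and 9.37 in P21_WT. That is a change of -0.66 ± 0.15 (SE; limma, adjusted p = 0.0868), the largest difference among members at 9 or above. Rps27l, a paralog of Rps27 and a target of p53, read 7.40 and 6.98 in P4_WT and 6.26 and 6.29 in P21_WT, and Rps27 itself read 5.61 and 5.30 against 4.34 and 4.57. Both pairs of groups are separate, with changes of -0.91 ± 0.22 (SE; limma, adjusted p = 0.101) and -1.003 ± 0.245 (SE; limma, adjusted p = 0.102).

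Rps25, a small subunit protein used by some internal ribosome entry sites, was the member with the smallest p among those higher in P21_WT. It read 8.13 and 7.60 in P4_WT and 8.88 and 8.67 in P21_WT, a change of 0.91 ± 0.21 (SE; limma, adjusted p = 0.0867). Rpl3, a core large subunit protein near the peptidyl transferase centre, read 6.82 and 7.87 in P4_WT and 8.497 and 8.78 in P21_WT. Its change of 1.30 ± 0.37 (SE; limma, adjusted p = 0.161) was that of the brightest of 3 rows, and the others ranged down to -0.06. Without P4_WT replicate 1 the change of Rpl3 was 0.77. Rps23, a protein of the decoding centre, read 3.52 and 3.83 against 3.98 and 4.34, a change of 0.48 ± 0.23 (SE; limma, adjusted p = 0.446), which was 0.30 without P21_WT replicate 2.

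The genotype comparison sets melanocyte stem cells labelled as B-raf and C-raf knockout against those with wild-type alleles; the loss itself was not seen in the values of Braf above. There 50 of 64 members were lower in P21_KO and 14 were higher, with a median log2 change of -0.13 (quartiles -0.22 and -0.01) against 0.01 over all genes. Among the 30 members at 9 or above 29 were lower, with a median of -0.19, and among the other 181 genes at this level 100 were lower, with a median of -0.03. limma called 0 of 64 members, and 0.0% of all genes, so the test gives no single gene of any kind in this comparison. At an unadjusted p under 0.05 in limma 5 members were lower and 1 was higher, and 3.69% of all genes were lower. All 4 P21_KO arrays lay below both P21_WT arrays for 22 members (7.64% of all genes) and above them for 1, Rps3a1 (7.75% of all genes). Of the 30 members at 9 or above, 19 were separate and lower (63.3%), against 16.0% of the other 181 genes at this level. The melanocyte lineage markers were lower on the same arrays: 9 of 10 had a lower mean in P21_KO, with a median change of -1.09, and 7 were separate and lower. None of them was called by limma, 7 had an unadjusted p under 0.05, and their part in the differences of the ribosomal protein genes was not tested. The medians of both comparisons share the P21_WT arrays and are not independent of each other.

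Rps26, a small subunit protein that touches the messenger RNA upstream of the start codon, had the smallest p among members lower in P21_KO. It read 9.41 and 9.60 in P21_WT and 9.03, 8.92, 9.06 and 8.95 in P21_KO, which do not overlap, and changed by -0.52 ± 0.14 (SE; limma, adjusted p = 0.565). Rpl34, a large subunit protein, read 6.14 and 5.44 in P21_WT and 4.80, 3.92, 5.10 and 4.80 in P21_KO, a change of -1.14 ± 0.33 (SE; limma, adjusted p = 0.609). Rps4x, an X-linked small subunit protein, read 9.45 and 9.37 against 9.29, 8.86, 8.65 and 8.73, a change of -0.53 ± 0.21 (SE; limma, adjusted p = 0.736). In all 3 genes each P21_KO array lay below each P21_WT array, and none of the changes passed the test.

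Rps3a1, a small subunit protein that initiation factors contact, went against the other bright members. It read 9.46 and 9.85 in P21_WT and 10.19, 9.99, 10.34 and 10.33 in P21_KO, a change of 0.56 ± 0.17 (SE; limma, adjusted p = 0.609) with no overlap, which was 0.36 without P21_WT replicate 1. Rps13, another small subunit protein, gave the largest difference in genotype (2.52 ± 1.18, SE; limma, adjusted p = 0.792), but this rests on a single array. It read 4.27 in P21_WT replicate 1 and between 9.07 and 9.94 on the other 7 arrays, and without that array the change was -0.22. Rplp2, which pairs with Rplp1 on the stalk, read 2.83 and 3.64 in P21_WT and 4.00, 3.77, 3.79 and 3.42 in P21_KO, a change of 0.51 ± 0.38 (SE; limma, adjusted p = 0.891), and its ranges overlap. Without P21_WT replicate 1 the change was 0.11, and without P21_WT replicate 2 it was 0.92.

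**Figure D2:**
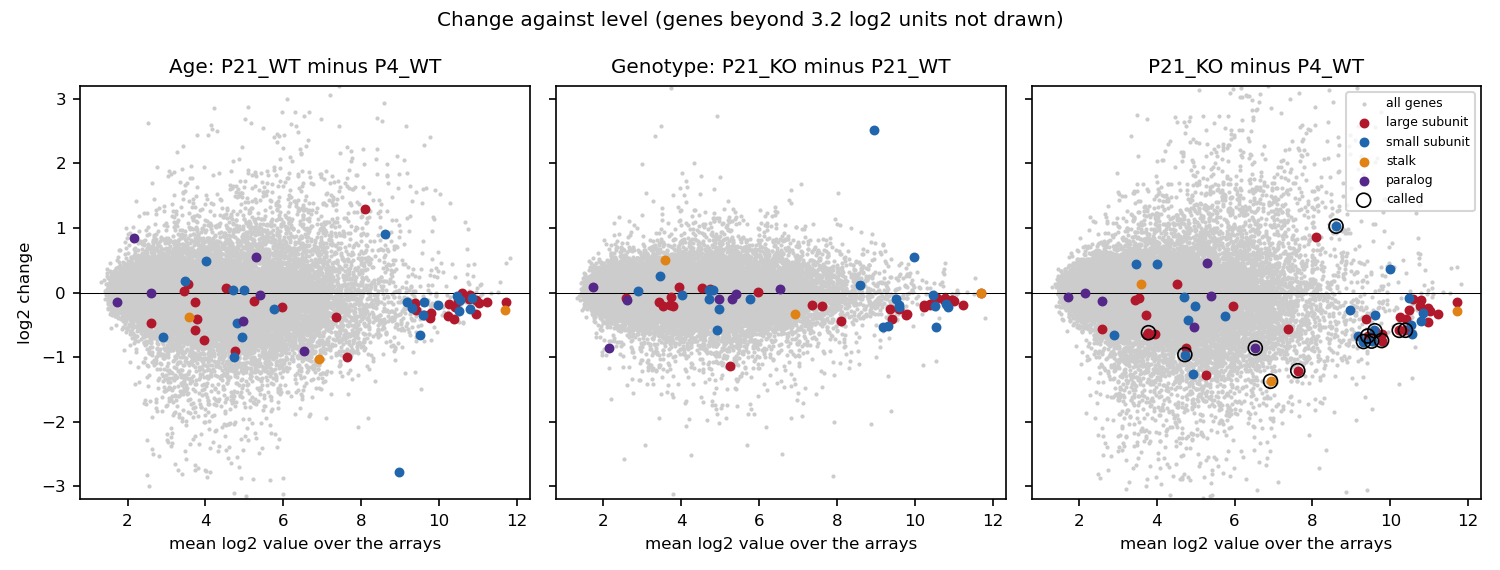
Log2 change of each gene against its mean log2 value over the 8 arrays in the 3 comparisons. Grey points are all genes, coloured points are ribosomal protein genes by subunit, and rings mark members that passed limma's test, of which there are 13 in the third panel and none in the others. Most members at 9 or above lie below 0, with medians of -0.19 in age, -0.19 in genotype and -0.41 in P21_KO minus P4_WT. Rps3a1 lies above 0 in genotype and in P21_KO minus P4_WT.

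The remaining pair of groups sets the knockout stem cells against melanoblasts. It adds the changes of age and of genotype and shares arrays with both. In it 56 of 64 members were lower in P21_KO and 8 were higher, with a median log2 change of -0.37 (quartiles -0.65 and -0.12) against 0.02 over all genes. limma called 13 members, or 20.3%, where it called 7.73% of all genes. Of these, 12 were lower (4.68% of all genes were called lower) and 1, Rps25, was higher (3.05%). The P21_KO arrays all lay below the P4_WT arrays for 41 members (15.5% of all genes) and all above them for 6 (14.2%). Of the other 181 genes at 9 or above, 28.2% were called, 22 lower and 29 higher, while 23.3% of the 30 members at this level were called, and these 7 were all lower. Of the 10 melanocyte lineage markers limma called 6 lower and 1 higher in this comparison (median -2.07), and their part in these calls was not tested.

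Rplp0 had the smallest p. It read 7.86 and 7.88 in P4_WT and 6.77, 6.21, 6.40 and 6.60 in P21_KO, a change of -1.38 ± 0.18 (SE), or 2.59-fold lower (limma, adjusted p = 0.00366). This call held in each of 8 fits that leave out 1 array, but with the mean of its 2 rows the change was -0.57 (limma, adjusted p = 0.14). Rps3 read 9.996 and 10.12 in P4_WT and 9.36, 9.21, 9.28 and 9.37 in P21_KO, a change of -0.75 ± 0.13 (SE; limma, adjusted p = 0.0125). Rps26 read 9.70 and 9.80 against 9.03, 8.92, 9.06 and 8.95, a change of -0.76 ± 0.14 (SE; limma, adjusted p = 0.0136). Rpl15, a large subunit protein, read 10.21 and 10.28 against 9.63, 9.27, 9.51 and 9.60, a change of -0.74 ± 0.15 (SE; limma, adjusted p = 0.0219). The fall of Rps3 and Rps27 lay mostly between P4_WT and P21_WT, whereas that of Rps26 was larger between the genotypes; whether these patterns differ was not tested.

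Rpl32, a large subunit protein often used as a reference gene, read 10.58 and 10.64 in P4_WT and 10.03, 10.02, 9.95 and 10.10 in P21_KO, a change of -0.59 ± 0.13 (SE; limma, adjusted p = 0.0304). Rps27 and Rps27l, which fell by 0.96 and 0.86 on the log2 scale, were also called (limma, adjusted p = 0.0308 and 0.0324). The others called lower were Rpl27, Rpl10a, Rpl7, Rpl37 and Rpl37a, of the large subunit, with changes of -1.21 to -0.59 and limma adjusted p from 0.032 to 0.0457. The second, dimmer rows of Rpl27 and Rpl7 went the other way (0.07 and 0.12), while that of Rps26 was lower too (-1.31). Rps25 rose: it read 8.13 and 7.60 in P4_WT and 8.99, 8.74, 8.97 and 8.87 in P21_KO, a change of 1.03 ± 0.18 (SE; limma, adjusted p = 0.013), or 2.04-fold. Without P4_WT replicate 2, the array with more immune, endothelial and mast cell marker signal, limma called 2 members, Rplp0 and Rps7, of which Rplp0 is 1 of the 13. Rps3 and Rps25 kept their call in 7 of the 8 fits that leave out 1 array, Rps26 in 6, Rpl15 in 5 and Rps27 in 4. Rpl32, Rpl27, Rps27l, Rpl10a, Rpl37 and Rpl37a kept it in 1 of 8 and Rpl7 in 0 of 8, and none of these 7 passed with only the arrays of P4_WT and P21_KO in the fit (limma, adjusted p from 0.0502 to 0.0691). In the fit without P4_WT replicate 2, 29 of the 30 members at 9 or above were still lower, with a median of -0.37 against -0.41 with all arrays. Without P4_WT replicate 1 limma called 3 members, and without any 1 of the other arrays 6 to 9. The part of the marker differences in these calls was not tested.

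**Figure D3:**
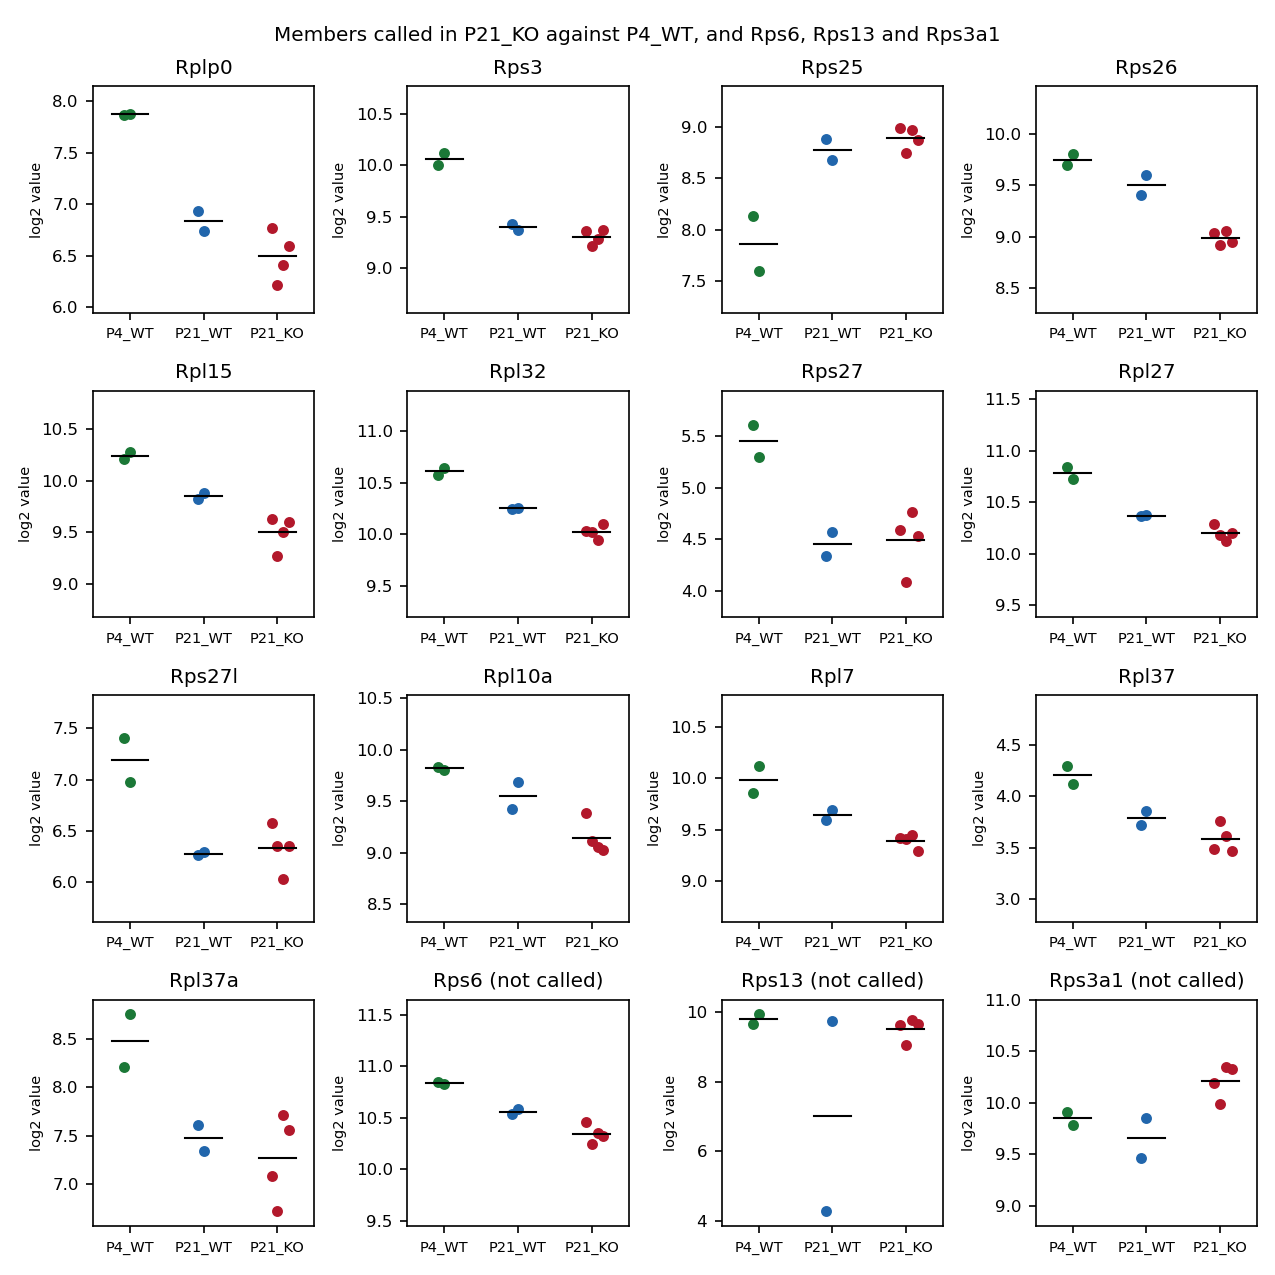
Log2 values on each array (points) and group means (bars) for the 13 members called in P21_KO against P4_WT, in order of p, and for Rps6, Rps13 and Rps3a1, which were not called. Axes span at least 2.2 log2 units and do not start at 0. The P21_KO points lie below the P4_WT points in every called gene except Rps25, and Rps13 has a single low point in P21_WT.

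By role, a larger share of the 32 large subunit members than of the small subunit members was lower. Of them, 28 were lower in age (median -0.20), 28 in genotype (median -0.18) and 30 in the knockout against P4_WT (median -0.41), where 7 were called, all lower. Of the 22 small subunit members, 17, 15 and 18 were lower in the same order, with medians of -0.22, -0.10 and -0.39. In the knockout against P4_WT 3 of them were called lower and 1 higher, where 7.73% of all genes were called. At 9 or above, all 18 large subunit members were lower in each comparison, with medians of -0.17, -0.18 and -0.40. Of the 11 small subunit members at this level, 11, 10 and 10 were lower, with medians of -0.19, -0.21 and -0.50. Rps6, the small subunit protein that S6 kinases and RSK phosphorylate, read 10.85 and 10.83 in P4_WT. It read 10.54 and 10.58 in P21_WT, and 10.46, 10.25, 10.35 and 10.32 in P21_KO. Each group lay below the one before with no overlap. The change was -0.28 ± 0.15 (SE) in age and -0.21 ± 0.13 (SE) in genotype, and -0.50 ± 0.13 (SE; limma, adjusted p = 0.0616) in the knockout against P4_WT, and none of the 3 passed the test.

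The proteins known from pigmentation mutants did not pass the test in any of the 3 comparisons. Rps19 read 9.96 and 9.97 in P4_WT, 9.67 and 9.56 in P21_WT and 9.55, 9.28, 9.24 and 9.49 in P21_KO, so that its groups too stood in that order without overlap, and its knockout against P4_WT change was -0.57 ± 0.15 (SE; limma, adjusted p = 0.0562). Rps20 read 5.04 and 5.24 in P4_WT, 4.61 and 4.73 in P21_WT and 4.57 to 4.87 in P21_KO, with a change of -0.47 ± 0.17 in age (SE; limma, adjusted p = 0.28). Rps7 read 6.26 and 5.21 in P4_WT, 5.30 and 4.80 in P21_WT and 4.04 to 4.95 in P21_KO, with a knockout against P4_WT change of -1.26 ± 0.35 (SE; limma, adjusted p = 0.0723), and of -0.74 without P4_WT replicate 1. P21 arrays of both Rps20 and Rps19 lay below both P4_WT arrays, while for Rps7 a P21_WT array lay inside the P4_WT range. Rpl27a, whose mutation in mice darkens the footpads, and Rpl38, whose loss shortens the tail, gave no separate genotype groups: Rpl38 read 10.66 to 10.90 on all 8 arrays and Rpl27a 2.21 to 3.31.

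Rpl5 and Rpl11, the Mdm2-binding proteins of the large subunit, were both measured by dim rows. Rpl5 read 3.82 and 4.61 in P4_WT, 3.62 and 3.64 in P21_WT and 3.15 to 3.94 in P21_KO, a knockout against P4_WT change of -0.66 ± 0.27 (SE; limma, adjusted p = 0.214). It was -1.05 without P4_WT replicate 1 and -0.26 without P4_WT replicate 2. Rpl11 lay between 4.44 and 4.70 on all arrays. Of the stalk proteins, Rplp1 was bright and read 11.92 and 11.91 in P4_WT, 11.61 and 11.66 in P21_WT and 11.44 to 11.74 in P21_KO, so that the P21 groups overlap each other and lie below P4_WT. Its age change of -0.28 ± 0.16 (SE; limma, adjusted p = 0.575) did not pass the test.

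The paralogs were dimmer and less alike. The 7 had a mean over arrays of 4.19 and 4.18 in P4_WT, 4.04 and 4.30 in P21_WT and 3.97 to 4.08 in P21_KO, and medians of -0.04 in age and -0.09 in genotype. Rpl3l, made mainly in muscle, read 2.46 to 2.88, and Rpl10l, made mainly in testis, read 1.59 to 1.97, both below the arrays' median gene. Rpl39l, another testis paralog, read 5.08 to 5.63. Rpl22l1 was higher in P21_WT (5.84 and 5.13) than in P4_WT (5.01 and 4.87), a change of 0.55 ± 0.28 (SE; limma, adjusted p = 0.482). Without P21_WT replicate 1 it was 0.19 and without P21_WT replicate 2 it was 0.91. Its parent Rpl22 had a difference of -0.22 ± 0.16 (SE; limma, adjusted p = 0.666). Rps27l was the only paralog called in the knockout against P4_WT.

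Most genes of other protein synthesis lists were lower in P21_WT as well, and the mitochondrial ribosome had the lowest median of these lists. Of 71 genes of mitochondrial ribosomal proteins, 60 were lower in P21_WT, with a median of -0.60, and 1 was called, Mrpl18 (-1.96 ± 0.15, SE; limma, adjusted p = 0.00122). In genotype their median was -0.08, with 45 of 71 lower, and 6 were separate and lower (8.45%), where 34.4% of the cytosolic members were. Of 49 measured genes of ribosome biogenesis, 36 were lower in age (median -0.30), with the smallest p for Emg1, an 18S rRNA methyltransferase (-1.06 ± 0.21, SE; limma, adjusted p = 0.0558). In genotype 31 of the 49 were lower (median -0.07), and none was called in either. In the knockout against P4_WT, 11 of the 71 mitochondrial genes were called, all lower, and of the biogenesis genes 4 were called lower, Ltv1 (-1.26 ± 0.20, SE; limma, adjusted p = 0.00893) among them, and 2 higher, Nop16 (0.97 ± 0.16, SE; limma, adjusted p = 0.00849) among them.

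Of 32 measured initiation factor genes, 28 were lower in age (median -0.34) and 17 in genotype (median -0.05). In the knockout against P4_WT 6 were called lower, Eif3c (-0.86 ± 0.15, SE; limma, adjusted p = 0.0122) and Eif3a (-0.81 ± 0.15, SE; limma, adjusted p = 0.0172) among them, and 1 higher. Together these are 21.9% of the list, where 7.73% of all genes were called. Of 12 elongation factor genes, 1 (8.33%) was called in the knockout against P4_WT, Eef1g (-0.90 ± 0.16, SE; limma, adjusted p = 0.0134), and their medians were -0.29 in age and -0.07 in genotype. Of 12 measured genes of RNA polymerase I, 8 were lower in age and 9 in genotype (medians -0.17 and -0.19). In the knockout against P4_WT 16.7% of them were called, Taf1d and Polr1d, both lower (-1.97 ± 0.30 and -0.72 ± 0.17, SE; limma, adjusted p = 0.00743 and 0.037). Of 17 measured regulators of ribosomal protein messenger RNAs (mTOR and Myc pathway genes, LARP genes and Mdm2), 0 were called in any comparison by limma, with 5 at an unadjusted p under 0.05 in the knockout against P4_WT, where 20.5% of all genes had one. Rpsa and Fau, small subunit proteins whose symbols lie outside the rule, changed by -0.42 ± 0.33 and -0.33 ± 0.16 (SE) in age and by -0.63 ± 0.29 and 0.01 ± 0.14 (SE) in genotype. The median over 19 cell cycle genes was -1.74 in age, with 10 called, all lower, where 1.61% of all genes were called. In genotype it was -0.41, with 0 called by limma and 4 lower at an unadjusted p under 0.05. The part of the cell cycle in the changes of the ribosomal protein genes was not tested. Nor was that of the 16 immediate early and dissociation genes, whose median was 1.47 in age, with 9 called, and 0.23 in genotype.

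**Figure D4:**
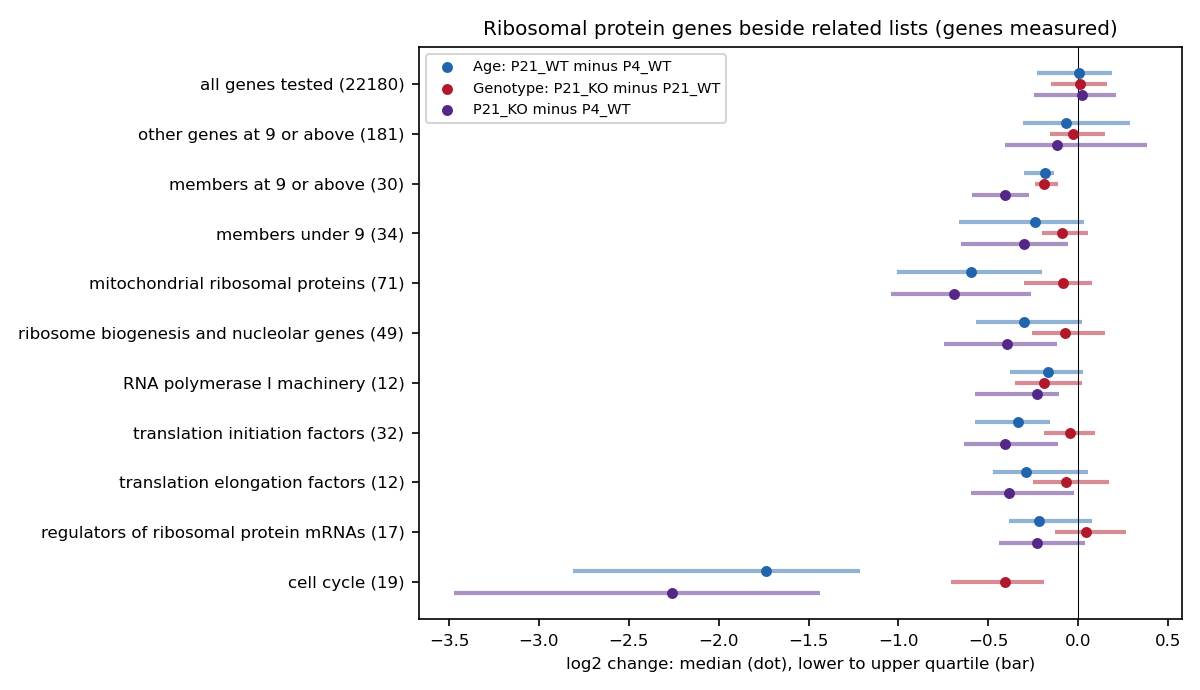
Median log2 change (dots) and the range from lower to upper quartile (bars) of the ribosomal protein genes, split by level, and of related lists, in the 3 comparisons, with the number of genes measured in brackets. The bars of the 30 members at 9 or above lie below 0 in all 3 comparisons and are the shortest, whereas the mitochondrial ribosomal protein genes lie lowest of the protein synthesis lists in age and close to 0 in genotype.

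The start sites are shown because the pyrimidine tract there is the best known feature that these genes share. RefSeq's promoter table (GRCm38.p6), with 250 bases before and 50 after each start, held 51 of the 64 members. The search was for at least 8 pyrimidines in a row of which the first is C, alone or inside a longer run. The longer run need not begin with C. Such a run lay within 30 bases of an annotated start in 30 of the 51 (58.8%), against 21.0% of 17491 protein-coding genes. Below are 30 bases around the start for Rps6, Rpl28 and 6 of the members called in the knockout against P4_WT, with 15 bases on each side and the longest pyrimidine run in capitals. Each is given 5′ to 3′ on the gene's own strand.
Rps6 (chr4:86857353-86857382, minus strand): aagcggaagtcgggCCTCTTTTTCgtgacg
Rpl28 (chr7:4792950-4792979, plus strand): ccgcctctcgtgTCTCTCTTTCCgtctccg
Rpl15 (chr14:18270972-18271001, minus strand): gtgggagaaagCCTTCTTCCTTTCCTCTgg
Rps26 (chr10:128626492-128626521, minus strand): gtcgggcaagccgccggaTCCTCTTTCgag
Rps27 (chr3:90213634-90213663, minus strand): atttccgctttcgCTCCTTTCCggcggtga
Rps25 (chr9:44407699-44407728, plus strand): TTTTTCCgacatcttagcgaggctgctgtg
Rplp0 (chr5:115559452-115559481, plus strand): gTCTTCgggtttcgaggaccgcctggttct
Rps3 (chr7:99483695-99483724, minus strand): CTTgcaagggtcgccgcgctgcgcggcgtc
The first 5 have a long run across or beside the start, and that of Rps25 ends before it. In Rplp0 and Rps3 the longest run in this window is short, which says only that no such run lies at the annotated start.

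Members with and without the run had medians close to each other. The 30 members with it had median changes of -0.19 in age and -0.16 in genotype, and the 21 without it -0.22 and -0.09. Among exact motifs, searched on both strands of the 300 bases, CCGGAAG, the core of ETS factor sites, occurred in 43.1% of the members and 12.9% of all genes. AAGATGGC, the core of YY1 sites, occurred in 5.88% against 3.57%, CACGTG, the E-box that Myc binds, in 7.84% against 8.91%, and TATAAA in 11.8% against 14.8%. The 22 members with CCGGAAG had median changes of -0.22 in age and -0.10 in genotype, and the 29 without it -0.22 and -0.17. A match is a string of letters and not evidence of binding.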

How the data were processed

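The authors deposited 1 table of log2 values. The submitters' processing notes name RMA and Affymetrix Expression Console, with no version. RMA subtracts background, brings the arrays to one distribution and summarises each probe set, which compresses differences near the floor. Of 41345 rows, 23521 carried 1 symbol, 1814 several and 16010 none. For genes with several single-symbol rows (24 members) the row with the highest mean was kept, which left 22180 genes. All rows of a gene had the same sign for 13 of these 24 members in age, 14 in genotype and 13 in the knockout against P4_WT. Of the 47 member rows with a mean of 9 or above, 46, 46 and 45 were lower in the same order. With limma 3.58.1 in R 4.3.3, 1 model with a mean per group was fitted to the 8 arrays together (5 residual degrees of freedom per gene) after the script had been tested on simulated data. The number of arrays limits the precision, and a p-value here reflects only how these samples spread.

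The members and the gene lists were chosen with earlier results of these data known. Named are stalk proteins, proteins with known mutants, paralogs and their parents, and per comparison the 5 called members with the smallest p in each direction (3 where none was called). Rpl27, Rpl10a, Rpl7, Rpl37, Rpl37a, Rpl32l and Rpl41 were added after their values were seen. Rpl28, shown for its start site, falls outside these rules as well. From other lists at most 2 genes with the smallest p are named. Equal replicate numbers do not pair the arrays: correlations of their deviations from the group means ran from -0.04 to 0.01. Alternatives covered the arrays in the fit, prior, array weights, scaling, dim genes, rows per gene, blocks, thresholds, the members counted and leaving out each array.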

Additional observations from a re-analysis of the deposited data

Results flagged for a closer look

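Rpl11 was the only one of the 30 named members with an array far from the others within P21_KO, the group of 4. Replicate 4 read 4.70 (4.695) where the other 3 read 4.54 to 4.55, so the gap is most of the group's range but small on the log2 scale. Chance gives about 1 such array in 20 groups tested.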

How the results depend on the processing

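The median change of the members kept its sign under every alternative run. In age (-0.20) it was -0.14 after centring on genes above the median on all arrays, -0.145 after cyclic loess and -0.24 to -0.16 when 1 array was left out. In genotype (-0.13) it was -0.17 to -0.094 when 1 array was left out and -0.19 over the members at 9 or above. In the knockout against P4_WT (-0.37) it was -0.28 after the same centring, -0.29 after cyclic loess, -0.31 with the mean of a gene's rows, -0.425 with the replicate number as a block and -0.42 to -0.355 when 1 array was left out. The other alternatives moved it by less than 0.044, the spread between replicates (pooled SD of the array medians, each gene centred first). The count of calls was less stable. In age (0 called) it was 1 with array weights (Rplp0), 0 to 1 when 1 array was left out (Rpl32l or Rps13), 3 at an adjusted p under 0.10 and 13 at an unadjusted p under 0.05. In genotype (0 called) it was 0 to 1 when 1 array was left out (Rps13) and 6 at an unadjusted p under 0.05. In the knockout against P4_WT (13 called) it was 7 after centring on genes above the median on all arrays, 6 after cyclic loess, 6 with only the arrays of the groups compared, 2 to 9 when 1 array was left out, 21 at an adjusted p under 0.10 and 35 at an unadjusted p under 0.05, and the cause was not tested. Counting only members at 9 or above, chosen after seeing the data, gave 7 because fewer genes are counted. With the replicate number as a block it was 1 (Rpl34, -1.57, limma adjusted p = 0.0468), but the numbers do not pair the arrays. Rps13 changed sign in genotype without P21_WT replicate 1, to -0.22, and was 5.26 without P21_WT replicate 2. Centring on genes above the median moved the median of all genes by up to 0.093, and there 27 of 30 members at 9 or above were lower in age, 27 in genotype and 28 in the knockout against P4_WT, where cyclic loess gave 27 in each. Over the alternatives between 48 and 54 members were lower in age and between 44 and 55 in genotype. The total was 64 members, or 59 with dim genes left out. Fits that leave 1 array in a wild-type group assume that it varies like the other groups.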
